A study of Mus musculus with 19 samples.

Results

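Glycolysis turns glucose into pyruvate, and hypoxia genes report on how cells sense and meet a low oxygen supply. Described here are 32 genes of these pathways in the mouse plantaris tendon: glucose carriers, every step of glycolysis, the handling of lactate and pyruvate, and 7 genes of the hypoxia response. They were picked by name from the 24972 genes of the deposited table and not by a rule on their values, though earlier results of these data were known. All 32 were listed and all 32 passed the filter on low values (3 or more libraries with a rescaled signal of 10 or above), as did 16619 genes in all. The study set Scx- mice, in which the gene of the tendon transcription factor scleraxis (Scx) was targeted, beside Scx+ mice. Tamoxifen had been given to both, and their tendons had met a growth stimulus for 7 or 14 days (4 libraries in each of 4 groups). The control was a set of 3 libraries from Scx+ mice with neither tamoxifen nor stimulus. The labels name no allele, Cre driver, strain, age or kind of stimulus. They also do not say that replicates were separate animals, so p-values measure the spread between samples, which may be partly technical.

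In most cells glycolysis runs at a modest rate and its enzymes are made from widely used genes. Skeletal muscle fibres instead carry dedicated forms of several steps, encoded by Eno3 (enolase), Pgam2 (phosphoglycerate mutase), Pfkm (phosphofructokinase) and Slc2a4 (the insulin-responsive glucose carrier GLUT4), whose partners elsewhere include Eno1, Pgam1, Pfkl, Pfkp and Slc2a1. When oxygen is short, the prolyl hydroxylases encoded by Egln1 and Egln3 slow down, the transcription factors HIF-1α (Hif1a) and HIF-2α (Epas1) escape breakdown, and genes such as Vegfa, Bnip3, Car9, Ldha, Pdk1 and Slc2a1 are transcribed. HIF-1α is controlled mainly as a protein, so its mRNA is not a measure of its activity. Tendon has few vessels and lies against muscle, which is one of the tissues richest in glycolytic mRNA.

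The libraries differed in the share of their signal from muscle genes, which was highest in the controls. Totals of the deposited signal (in 1e6) ran from 36.58 to 79.77 per library, and the reads behind them are unknown. Scx had a rescaled signal of 1.7 to 17.1 in the Scx- libraries, 2082 to 7993 in the stimulated Scx+ libraries and 316.6 to 588.9 in the controls. A list of 25 skeletal muscle fibre genes took up 25.33% to 30.3% of the signal in the controls, 0.03603% to 2.304% in the day 7 Scx+ libraries and 0.4009% to 6.613% in those of Scx-. The day 14 libraries held 0.2911% to 9.269% in Scx+ and 4.502% to 19.92% in Scx-. Tenomodulin (Tnmd), a tendon marker, was present in all groups, at 880.8 to 3033 in the controls. At day 7 Tnmd read 10001 to 27572 in Scx+ and 1032 to 2419 in Scx-. At day 14 it read 15646 to 62445 in Scx+ and 1148 to 6626 in Scx-, so the genotypes did not overlap at either day. Of 9 tested adipocyte markers, 9 were lower than in the control in each of the 4 stimulated groups, while 9 to 12 of 13 macrophage markers were higher. Erythroid markers took 0.8414% to 3.75% of the signal in Scx+ at day 7 and 0.0009998% to 0.2523% elsewhere. The defining markers checked for muscle (Acta1, Ckm), fat (Adipoq), red cells (Alas2), vessels (Pecam1) and macrophages (Adgre1) were above 0 in every library. In bulk tissue fewer cells of a type and less RNA per cell cannot be told apart.

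Promoters of the enolase and phosphoglycerate mutase pairs are printed first, because the data turn on the muscle and widely used forms of these enzymes. Each run covers the 250 bases before an annotated start (RefSeq, build GRCm38.p6), 5′ to 3′ on the strand of the gene, with the core of the hypoxia response element (ACGTG or GCGTG, read on both strands, so also CACGT and CACGC) in capitals.
Pgam1 (chr19:41911621-41911870, plus strand): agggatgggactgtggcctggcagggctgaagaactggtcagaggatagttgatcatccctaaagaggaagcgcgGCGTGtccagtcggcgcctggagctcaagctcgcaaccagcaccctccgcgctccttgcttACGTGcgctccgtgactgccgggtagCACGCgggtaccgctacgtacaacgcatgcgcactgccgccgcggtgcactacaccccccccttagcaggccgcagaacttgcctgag
Pgam2 (chr11:5803797-5804046, minus strand): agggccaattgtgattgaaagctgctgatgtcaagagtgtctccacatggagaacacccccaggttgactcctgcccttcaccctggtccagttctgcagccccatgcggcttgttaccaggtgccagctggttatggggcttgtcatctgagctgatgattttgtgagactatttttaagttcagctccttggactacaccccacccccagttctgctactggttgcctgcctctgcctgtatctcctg
Eno1 (chr4:150236458-150236707, plus strand): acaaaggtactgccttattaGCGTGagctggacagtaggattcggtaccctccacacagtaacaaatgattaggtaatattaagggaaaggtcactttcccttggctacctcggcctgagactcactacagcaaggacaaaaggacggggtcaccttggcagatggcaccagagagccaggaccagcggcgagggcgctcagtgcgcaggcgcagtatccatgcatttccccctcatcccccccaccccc
Eno3 (chr11:70656926-70657175, plus strand): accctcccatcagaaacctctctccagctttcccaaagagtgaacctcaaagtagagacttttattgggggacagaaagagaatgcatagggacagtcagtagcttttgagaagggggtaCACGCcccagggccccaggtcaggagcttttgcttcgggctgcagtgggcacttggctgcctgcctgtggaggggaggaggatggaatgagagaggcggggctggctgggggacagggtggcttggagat
The Pgam1 window held 3 cores and the Pgam2 window 0, while Eno1 (the most upstream of its 3 listed starts) and Eno3 held 1 each. The E-box CANNTG, the site class of scleraxis and of the muscle regulators, occurred 0 times before Pgam1, 5 times before Pgam2, 2 times before Eno1 and 1 time before Eno3. The windows of the other Eno1 starts, not printed, held 2 cores and 0 E-boxes each, so the Eno1 counts depend on the start chosen. Promoters matched for 30 of the 32 genes (not for Slc2a4 and Epas1), with 44 windows in all. A hypoxia core stood in 35 of these 44 windows (79.5%), against 38.6% of all 32851 windows of this length. Counted by gene, 27 of 30 had one in at least 1 window (90.0%), against 57.0% of the 12741 other tested genes with a promoter. An E-box stood in 30 of 44 windows (68.2%), against 66.2% of all windows, and by gene in 22 of 30 (73.3%), against 63.3% of the other tested genes. The sequence CACGTG counts as both motifs. Such matches describe letters, not bound sites.

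Against the control, most glycolytic and hypoxia mRNAs were lower in all 4 stimulated groups, and a minority was higher. Of the 32 genes, 16 were lower in each of the 4 comparisons and included the 3 muscle isoforms Eno3, Pgam2 and Pfkm. Another 4 were higher in each of them: Pgam1, the hexokinase gene Hk1, the aldolase gene Aldoc and Hif1a. The calls came from limma with Benjamini-Hochberg adjustment over all 16619 tested genes (threshold 0.05), and the 4 comparisons share the same 3 control libraries. In Scx+ at day 7, 7 genes rose and 21 fell, where 33.8% of all tested genes rose and 27.5% fell (61.3% together). The day 7 count in Scx- was likewise 7 and 21 (background 32.3% and 25.9%, together 58.2%). At day 14 it was 7 and 20 in Scx+ (background 30.9% and 25%, together 55.9%). The Scx- tendons of that day had 4 and 16 (background 25.5% and 18.3%, together 43.8%). The median log2 fold change of the 32 genes was -2.28 and -2.12 in Scx+ and Scx- at day 7 and -2.11 and -1.52 at day 14, where the median of all tested genes was 0.18, 0.14, 0.15 and 0.12. Without Scx- day 14 replicates 1 and 2 together the median in Scx- at day 14 was -2.44, and 5 genes rose and 21 fell there (51.6% of all tested genes passed in either direction). Bnip3, Egln3, Ldhb, Pdk1, Pfkp and Slc2a4 were the 6 that passed in addition. With all libraries but without the 4 muscle isoforms, the medians of the other 28 genes were -2.07, -1.97, -1.83 and -1.40. The 32 genes made up 4.269% to 4.674% of the signal of the control libraries and 0.5218% to 2.346% of that of the stimulated ones.

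**Figure D1:**
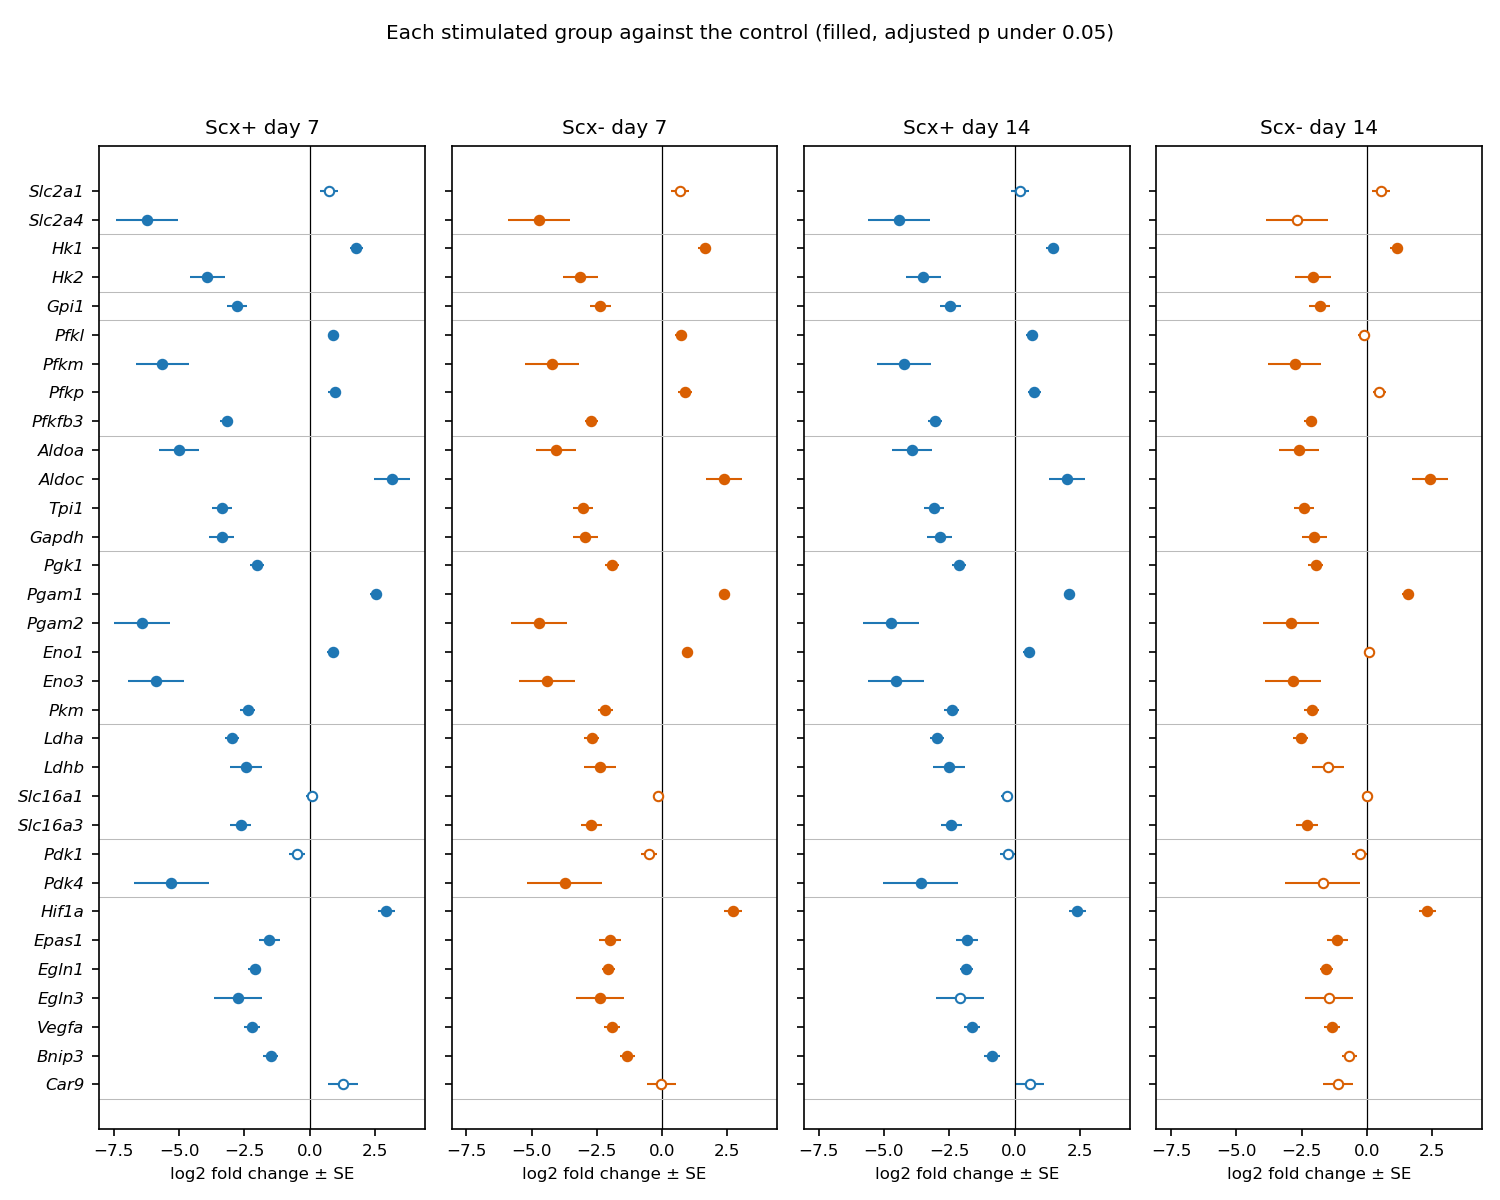
Log2 fold change against the control (horizontal axis, points with SE bars) for the 32 genes, 1 panel per stimulated group, ordered by role from glucose uptake to hypoxia; filled points passed an adjusted p of 0.05. Most points lie left of 0, with the muscle isoforms at -2.67 to -6.43, while Hk1, Aldoc, Pgam1 and Hif1a lie right of 0 in each panel.

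These comparisons hold the stimulus and tamoxifen together, and for Scx- also the genotype, so these cannot be told apart. Muscle genes were lower too, though hardly any passed as lower in Scx- at day 14. Of 25 listed, 18 were lower in Scx+ and 13 in Scx- at day 7, and 14 and 1 at day 14, with 3, 3, 3 and 4 higher. With the mean log2 level of the muscle list as a covariate, 5 of the 32 genes rose and 17 fell in Scx+ at day 7, 7 and 19 in Scx- at day 7, 6 and 19 in Scx+ at day 14, and 4 and 19 in Scx- at day 14. In that fit 41.5%, 52.5%, 50.5% and 48.2% of all tested genes passed in the same order, in either direction. That mean was 16.07 ± 0.35 in the controls (SD, n = 3) and 11.71 ± 2.69 in Scx+ at day 7 (SD, n = 4). It was 13.87 ± 1.69 in Scx- at day 7, 14.10 ± 2.07 in Scx+ at day 14 and 15.94 ± 1.46 in Scx- at day 14. Where the mean differed from the controls, the covariate also takes up part of the group difference. In Scx- at day 14 the mean lay close to the controls, so the covariate could adjust little there. The muscle signal was not equal, however. Against the control 16 of the 25 genes were negative and 9 positive there, with a median log2 fold change of -1.80 (-5.16 to 7.63). The list took 11.6% of the signal on average in that group and 27.25% in the controls. In Scx+ at day 7 the covariate moved Aldoa to -2.72, Hk2 to -1.94, Gapdh to -2.18 and Gpi1 to -1.83, each still past the threshold. Ldhb, Epas1, Pfkl and Pfkp did not pass there with the covariate (adjusted p = 0.102, 0.0977, 0.0575 and 0.169), nor did Bnip3 and Eno1 in Scx+ at day 14 (adjusted p = 0.0543 and 0.052). Scaling by library totals in place of medians of ratios moved the median of all tested genes against the control to between 0.58 and 0.83, and the count in Scx- at day 14 from 4 higher and 16 lower to 7 and 12. The share of all tested genes that passed under this scaling is not given here. The changed count is thus not a result about these genes alone. For Scx+ at day 7 this scaling moved Pgk1 to -1.35, Egln1 to -1.44, Bnip3 to -0.81, Eno1 to 1.55, Pfkl to 1.59 and Pfkp to 1.63. It brought Eno1 and Pfkp past the threshold in Scx- at day 14 (0.56 and 0.96) and took Eno3, Pfkm and Pgam2 below it there (adjusted p = 0.0695, 0.0619 and 0.0615). Under that scaling Epas1 no longer passed in Scx+ at day 7 (-0.87, adjusted p = 0.0749) or in Scx- at day 14 (-0.65, adjusted p = 0.201).

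At the step from 3-phosphoglycerate to 2-phosphoglycerate, the muscle isoform was lower and the widely used isoform higher than in the control in all 4 stimulated groups. The part of muscle RNA in this pattern was not tested. Pgam2, the muscle form of phosphoglycerate mutase (chromosome 11, 5801640 to 5803733, GENCODE M21 on GRCm38), had a rescaled signal of 94703, 115793 and 105562 in the controls. Pgam2 read 525.1, 263.5, 4202 and 3720.5 in Scx+ and 3898, 7537, 11530.4 and 746.8 in Scx- at day 7. Day 14 Pgam2 values were 905.3, 10186, 3958 and 6858 in Scx+ and 15318, 29473, 8273 and 10020.5 in Scx-. Every control lay above every stimulated library, and the stimulated libraries spanned over 2 orders of magnitude. Its log2 fold change was -6.43 ± 1.07 and -4.72 ± 1.07 in Scx+ and Scx- at day 7, and -4.72 ± 1.07 and -2.92 ± 1.07 at day 14 (adjusted p from 0.000103 to 0.0369). Pgam1, the widely used form (chromosome 19, 41911923 to 41918660), read 2148, 1845 and 2821 in the controls. Pgam1 read 13870.4, 15174, 14154 and 9407 in Scx+ and 9601, 11539, 11428 and 14869 in Scx- at day 7. Day 14 Pgam1 values were 12518, 9766, 8682 and 8045 in Scx+ and 5748, 6128, 6465 and 8237 in Scx-. All 16 stimulated libraries were above all 3 controls, and within groups they varied far less than those of Pgam2. Its log2 fold change was 2.53 ± 0.21 and 2.39 ± 0.21 in Scx+ and Scx- at day 7, and 2.10 ± 0.21 and 1.56 ± 0.21 at day 14 (adjusted p from 7.4e-08 to 3.06e-05). The groups of 4 were compared with 3 controls throughout, and ± after a log2 fold change is the SE of the fit.

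The same pattern, less even on the side of the partner, was found for enolase, which makes phosphoenolpyruvate. Eno3, the muscle form (chromosome 11, 70657202 to 70662513), read 356341, 469720.0 and 432689 in the controls. Eno3 read 2968, 1750.5, 23247 and 21014 in Scx+ and 20796, 34640.1, 53180.5 and 3848 in Scx- at day 7. Day 14 Eno3 values were 3519.6, 38646, 18186 and 41817 in Scx+ and 77529.5, 144551, 30016 and 34318 in Scx-. No stimulated library reached the lowest control, and the highest 2 of them were Scx- day 14 replicates 1 and 2. The log2 fold change was -5.88 ± 1.08 and -4.41 ± 1.08 in Scx+ and Scx- at day 7, and -4.54 ± 1.08 and -2.84 ± 1.08 at day 14 (adjusted p from 0.000242 to 0.0438). Eno1, the widely used form (chromosome 4, 150236721 to 150248879), read 4149, 6887 and 4933 in the controls. Eno1 read 7736, 9869, 13801 and 7921 in Scx+ and 9509, 9803, 10664 and 10544 in Scx- at day 7. Day 14 Eno1 values were 9373, 8561, 6273 and 6644 in Scx+ and 5979, 5376, 4745 and 6009 in Scx-. It rose in 3 of the 4 groups, by 0.88 ± 0.21 in Scx+ and 0.96 ± 0.21 in Scx- at day 7 and by 0.55 ± 0.21 (adjusted p = 0.0331) in Scx+ at day 14, and differed by 0.08 ± 0.21 (adjusted p = 0.775) in Scx- at day 14, where the values overlapped those of the controls. The rise in Scx+ at day 14 did not hold without control replicate 1 or 3 or Scx+ day 14 replicate 1 or 2 (adjusted p from 0.0784 to 0.171). In the authors' deposited table this rise was 0.57 and did not pass (adjusted p = 0.0647). A near-identical copy, Eno1b, read 8601 to 11716 in the controls, 17173 to 26021 in the Scx+ and 19753 to 24871 in the Scx- libraries of day 7, and 14003 to 21260 in the Scx+ and 8414 to 14294 in the Scx- libraries of day 14. How reads shared by Eno1 and Eno1b were assigned is not given in the sources used here, so the level of Eno1 alone is uncertain.

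**Figure D2:**
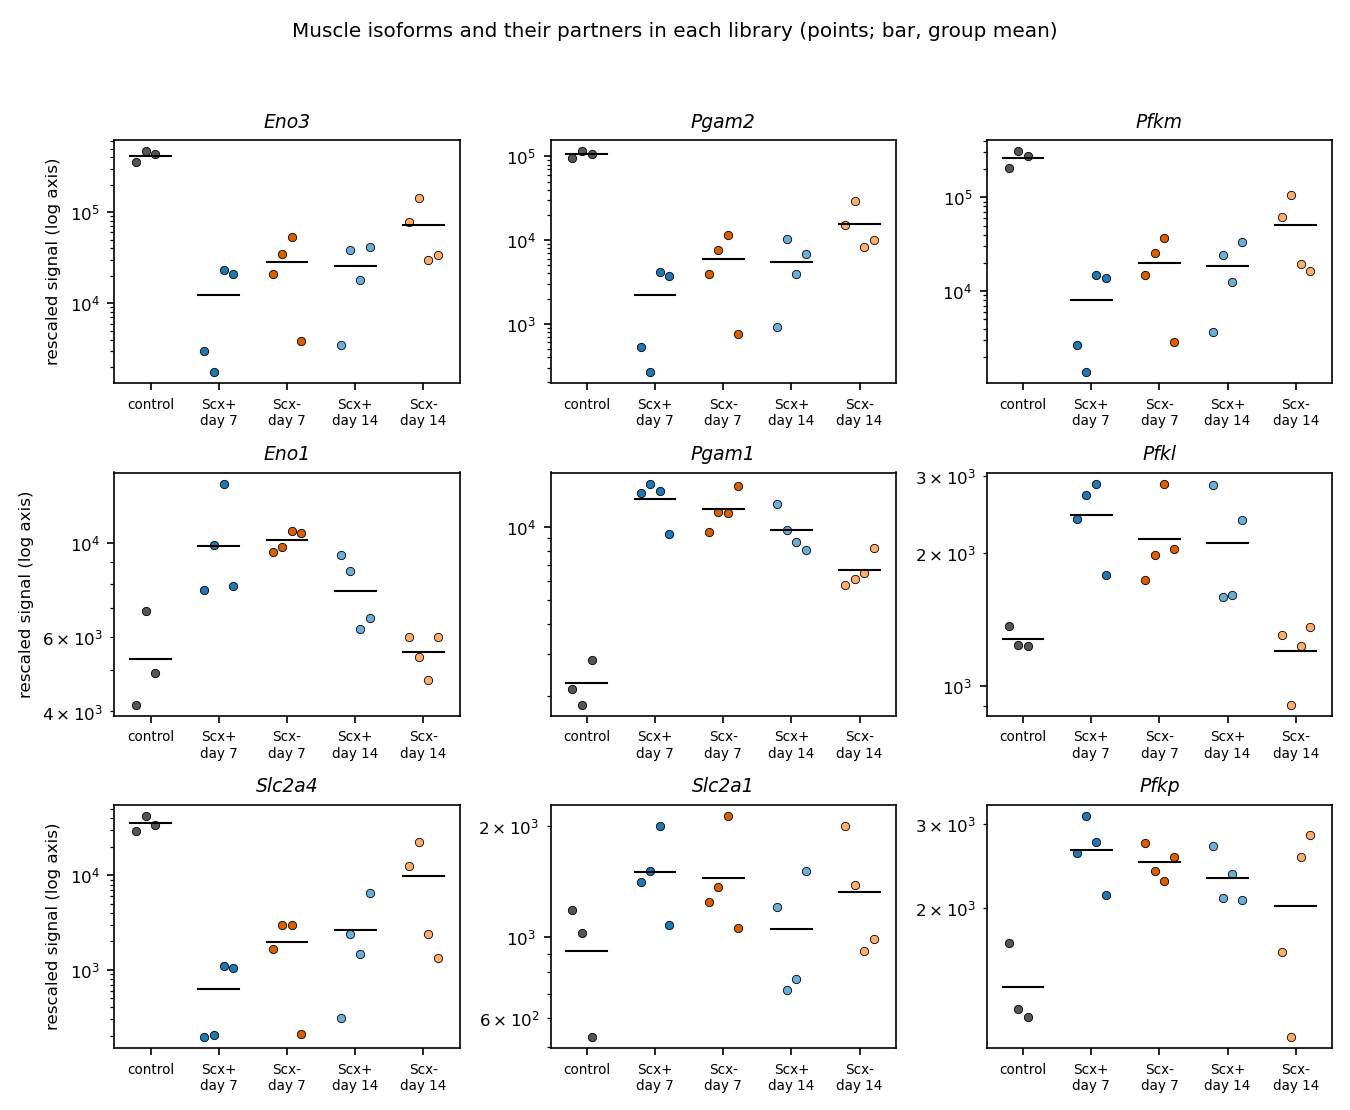
Rescaled signal (log axis) of the muscle isoforms and their partners in each of the 19 libraries (points), with bars at the group means. Eno3, Pgam2, Pfkm and Slc2a4 are highest in the 3 controls and spread widely within stimulated groups, whereas all 16 stimulated Pgam1 points lie above the controls.

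Phosphofructokinase, which commits sugar to glycolysis, is built from subunits of 3 genes. Pfkm, the muscle subunit (chromosome 15, 98092589 to 98132451), read 206339, 309931 and 277673 in the controls. Pfkm read 2658, 1372, 14794 and 13769.8 in Scx+ and 14861, 25303, 36968 and 2858 in Scx- at day 7. Day 14 Pfkm values were 3678, 24061, 12469 and 33257 in Scx+ and 62090.0, 106652, 19689 and 16362 in Scx-. Its groups did not overlap with the control, and its log2 fold change was -5.64 ± 1.03 and -4.21 ± 1.03 in Scx+ and Scx- at day 7, and -4.24 ± 1.03 and -2.77 ± 1.03 at day 14 (adjusted p from 0.000222 to 0.0389). Pfkl, the liver-type subunit, read 1363, 1240.4 and 1233 in the controls. Pfkl read 2396, 2711, 2877 and 1786 in Scx+ and 1736, 1986, 2865 and 2045 in Scx- at day 7. Day 14 Pfkl values were 2862, 1590.0, 1610.1 and 2376 in Scx+ and 1303, 905.9, 1231 and 1362 in Scx-. It rose by 0.91 ± 0.22 and 0.73 ± 0.22 in Scx+ and Scx- at day 7 and by 0.68 ± 0.22 (adjusted p = 0.0169) in Scx+ at day 14, while the Scx- day 14 libraries lay around the controls, at -0.11 ± 0.22 (adjusted p = 0.721). Pfkp, the platelet-type subunit, read 1695, 1230.3 and 1186 in the controls. Pfkp read 2602, 3116, 2754 and 2128 in Scx+ and 2738, 2396, 2275 and 2562 in Scx- at day 7. Day 14 Pfkp values were 2697, 2101, 2352 and 2083 in Scx+ and 1623, 1074, 2556 and 2842 in Scx-. It rose by 0.96 ± 0.25 and 0.88 ± 0.25 at day 7 and by 0.76 ± 0.25 (adjusted p = 0.0159) in Scx+ at day 14. The Scx- day 14 difference of Pfkp was 0.48 ± 0.25 (adjusted p = 0.129), with replicates 3 and 4 above and replicates 1 and 2 within or below the range of the controls, and without replicate 2 it passed (0.75, adjusted p = 0.00568). In Scx+ at day 14 the rise of Pfkl did not hold without control replicate 3 or Scx+ day 14 replicate 1 (adjusted p = 0.0522 and 0.0620), nor that of Pfkp without control replicate 2 or 3 (adjusted p = 0.0580 and 0.0673). Pfkfb3, which encodes the enzyme that makes the activator of phosphofructokinase, fell together with the muscle form and read 12456, 16364 and 16997 in the controls. Pfkfb3 read 1716, 1512, 2133 and 1418 in Scx+ and 2042, 3144, 2224 and 2023 in Scx- at day 7. Day 14 Pfkfb3 values were 1612, 2051, 1312 and 2566 in Scx+ and 4331, 4208, 3329.6 and 2180.4 in Scx-. Its log2 fold change was -3.17 ± 0.25 and -2.71 ± 0.25 in Scx+ and Scx- at day 7, and -3.05 ± 0.25 and -2.16 ± 0.25 at day 14 (adjusted p from 5.34e-08 to 8.2e-06), with every stimulated library below every control.

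Of the glucose carriers, the muscle form fell in 3 of 4 groups and the widely used form did not pass the test. Slc2a4 (chromosome 11, 69942539 to 69948188) read 29409, 42398 and 34466 in the controls. Slc2a4 read 193.7, 204.8, 1096 and 1042 in Scx+ and 1663, 2998, 2994 and 209.2 in Scx- at day 7. Day 14 Slc2a4 values were 308.2, 2369.9, 1486 and 6507 in Scx+ and 12626, 22787, 2368 and 1333 in Scx-. The log2 fold change was -6.24 ± 1.18 and -4.72 ± 1.18 in Scx+ and Scx- at day 7, and -4.42 ± 1.18 and -2.67 ± 1.18 at day 14, and it passed in all groups other than Scx- at day 14 (adjusted p = 0.0787). In that group replicates 1 and 2 were far above replicates 3 and 4, and without replicate 2 the value was -3.36 (adjusted p = 0.0341). Slc2a1, the basal carrier GLUT1, read 1184, 1022 and 532.7 in the controls. Slc2a1 read 1405, 1506, 2004 and 1074 in Scx+ and 1244, 1363, 2129 and 1054 in Scx- at day 7. Day 14 Slc2a1 values were 1202, 714.8, 768.7 and 1508 in Scx+ and 1995, 1384, 914.8 and 985.7 in Scx-. Its values overlapped with the controls in all 4 groups, with log2 fold changes of 0.76 ± 0.34 and 0.69 ± 0.34 in Scx+ and Scx- at day 7, and 0.21 ± 0.34 and 0.54 ± 0.34 at day 14 (adjusted p from 0.064 to 0.621). Slc2a1 passed as higher in each of the 4 groups when libraries were scaled by their totals (0.82 to 1.43), a scaling that raised the median of all genes as well. In Scx+ at day 7 it also passed without control replicate 1 (0.97, adjusted p = 0.0373) or Scx+ day 7 replicate 4 (0.90, adjusted p = 0.0421). The authors' deposited table lists Slc2a1 as higher in that group (0.73, adjusted p = 0.0445).

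The calls on Eno3, Pgam2 and Pfkm in Scx- at day 14 rested on few libraries. Without any 1 of the 3 controls or of Scx- day 14 replicates 3 and 4, none of the 3 passed (adjusted p from 0.0608 to 0.108). Eno3 and Pgam2 were also lost without Scx- day 14 replicate 1 (adjusted p = 0.0566 and 0.0553), and Eno3 without replicate 1 of Scx- day 7 or replicate 3 of Scx+ day 14 (adjusted p = 0.0540 and 0.0518). Fold changes in these fits ranged from -2.36 to -2.996. After adjustment for the muscle list the fall of the 4 muscle isoforms was smaller in Scx+ at day 7, at -2.53 for Eno3, -3.19 for Pgam2, -2.47 for Pfkm and -2.85 for Slc2a4. It hardly moved in Scx- at day 14 (-2.74, -2.82, -2.68 and -2.58), and each of these 8 values passed. The mean log2 level of the muscle list was 15.94 in Scx- at day 14 and 16.07 in the controls. The covariate thus had little difference to adjust for there, although the list took 11.6% of the signal on average against 27.25% in the controls. The adjusted values in Scx- at day 14 are therefore not free of a difference in muscle signal.

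Set per length of their longest coding transcripts, the muscle forms made up nearly all of each isoform group in the controls and a changing part of it in the stimulated tendons. Eno3 was 98.88% to 99.13% of Eno3 and Eno1 in the controls, and 18.69% to 77.47% in Scx+ and 32.11% to 86.6% in Scx- at day 7. At day 14 it was 32.73% to 89.08% in Scx+ and 88.1% to 97.21% in Scx-. With Eno1b counted as a partner the lowest share, in Scx+ day 7 replicate 2, was 5.59%. Pgam2 made up 98.75% to 99.25% of its pair in the controls and 3.54%, 7.41%, 38.6% and 45.5% in the Scx+ libraries of day 7. It was 71.99% to 91.04% in Scx- at day 14. Pfkm held 98.93% to 99.42% of its group in the controls and 24.37% to 82.82% in Scx+ at day 7, and Slc2a4 96.98% to 98.82% and 14.95% to 55.62%. The 4 libraries with the lowest shares were the same for all 4 isoforms: Scx+ day 7 replicates 1 and 2, Scx- day 7 replicate 4 and Scx+ day 14 replicate 1. These were also the 4 libraries with under 1% of their signal in the muscle list. The part of muscle RNA in the shares was not tested.

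**Figure D3:**
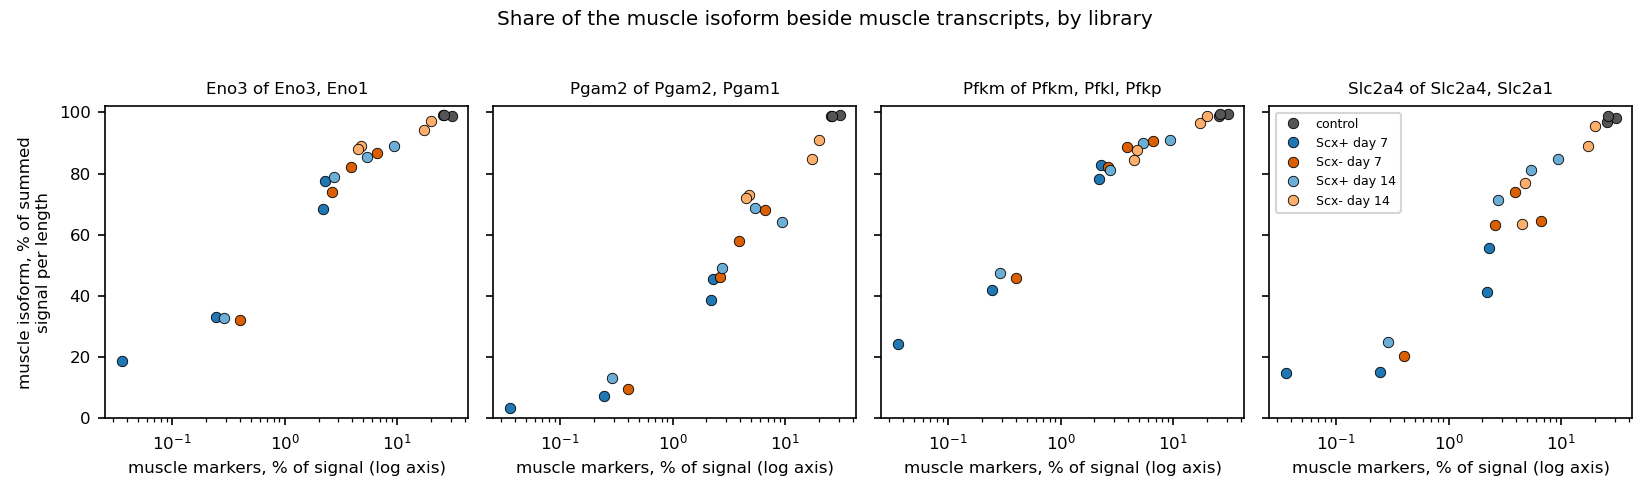
Share of each muscle isoform in the summed signal per length of its isoform group (vertical axis, %) against the share of 25 muscle fibre genes in all signal (horizontal log axis, %), 1 point per library. The 3 controls sit at the top right with shares of 96.98% or more, and the 4 libraries under 1% muscle signal sit at the bottom left.

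Among the hexokinases, which trap glucose as glucose-6-phosphate, the 2 genes moved in opposite directions. Hk2, the form of muscle and fat, read 18665, 31298 and 25882 in the controls. Hk2 read 1173, 897.3, 2683 and 2462 in Scx+ and 2720.3, 4179, 5904 and 949.7 in Scx- at day 7. Day 14 Hk2 values were 932.6, 3215, 1670.1 and 4669 in Scx+ and 10664, 11416, 3452 and 2909 in Scx-, with no stimulated library reaching the controls. Its log2 fold change was -3.93 ± 0.68 and -3.13 ± 0.68 in Scx+ and Scx- at day 7, and -3.49 ± 0.68 and -2.06 ± 0.68 at day 14 (adjusted p from 0.000129 to 0.0216). The call in Scx- at day 14 did not hold without control replicate 2 or 3 or Scx- day 14 replicate 3 or 4 (adjusted p from 0.0560 to 0.0717). Hk1, the widely used form, ranged over 701.2 to 1605 in the controls, 3049 to 3887 in the Scx+ and 2428 to 3753 in the Scx- libraries of day 7, and 2514 to 2899 in the Scx+ and 1450.2 to 2966 in the Scx- libraries of day 14. Only Scx- day 14 replicate 2, at 1450, fell inside the range of the controls. The log2 fold change of Hk1 was 1.79 ± 0.25 and 1.62 ± 0.25 in Scx+ and Scx- at day 7, and 1.47 ± 0.25 and 1.13 ± 0.25 at day 14 (adjusted p from 1.14e-05 to 0.00157).

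Gpi1, Aldoa, Tpi1, Gapdh, Pgk1 and Pkm, which cover the remaining steps, fell in every group. Gpi1, which turns glucose-6-phosphate into fructose-6-phosphate, read 76159.8, 100659.5 and 91669 in the controls. Gpi1 read 11162, 10029.8, 17182 and 14435 in Scx+ and 14226, 19937, 21649.6 and 14431 in Scx- at day 7. Day 14 Gpi1 values were 11057, 17029, 14299 and 25179 in Scx+ and 35643, 56824, 14286 and 14349 in Scx-. Aldoa, the aldolase of muscle and most other tissues and the highest of the 32 genes per length in the controls, read 1066629, 1314130.0 and 1231519 in the controls. Aldoa read 24927, 19284, 64965 and 59302 in Scx+ and 66748, 97756, 152902 and 26769 in Scx- at day 7. Day 14 Aldoa values were 22883, 114845, 69542 and 202172 in Scx+ and 348786, 558971, 94732 and 85774 in Scx-. In both, Scx- day 14 replicates 1 and 2 came closest to the controls without reaching them. Their log2 fold changes were -2.78 ± 0.40 and -2.37 ± 0.40 in Scx+ and Scx- at day 7, and -2.46 ± 0.40 and -1.81 ± 0.40 at day 14 for Gpi1, and -5.02 ± 0.76 and -4.06 ± 0.76 in Scx+ and Scx- at day 7, and -3.94 ± 0.76 and -2.59 ± 0.76 at day 14 for Aldoa (adjusted p at most 0.0117). Tpi1, which interconverts the triose phosphates, read 140079, 172641 and 157792 in the controls. Tpi1 read 12894, 12936, 20654 and 15686 in Scx+ and 15552, 22222, 29176 and 12908 in Scx- at day 7. Day 14 Tpi1 values were 13281, 24560.4, 14446 and 24374 in Scx+ and 35625, 62985, 16234 and 21149 in Scx-. Gapdh, the first enzyme of the energy-yielding stage and a common reference gene, read 31676, 37275 and 34483 in the controls. Gapdh read 3008, 2720.5, 4270.2 and 3493 in Scx+ and 3706, 5091, 7006 and 3045 in Scx- at day 7. Day 14 Gapdh values were 2406, 5909, 4373 and 7876 in Scx+ and 11976, 21496, 4174 and 4778 in Scx-. Again no stimulated library reached a control. Tpi1 changed by -3.36 ± 0.38 and -3.04 ± 0.38 in Scx+ and Scx- at day 7, and -3.09 ± 0.38 and -2.40 ± 0.38 at day 14 (adjusted p from 1.88e-06 to 0.000138). Gapdh changed by -3.37 ± 0.48 and -2.94 ± 0.48 in Scx+ and Scx- at day 7, and -2.87 ± 0.48 and -2.02 ± 0.48 at day 14 (adjusted p from 1.59e-05 to 0.00278). Pgk1 and Pkm, the ATP-forming kinases, fell by similar amounts in the 4 groups, with ranges of 61671 to 80157 in the controls, 14316 to 22111 in the Scx+ and 14938 to 23842 in the Scx- libraries of day 7, and 12907 to 21463 in the Scx+ and 11369 to 31088 in the Scx- libraries of day 14 for Pgk1. For Pkm they were 275689 to 320969.7 in the controls, 52817 to 73268 in the Scx+ and 48525 to 92397 in the Scx- libraries of day 7, and 47139 to 68623 in the Scx+ and 47226 to 117776 in the Scx- libraries of day 14. The fold changes of both lay between -2.40 and -1.93 in the 4 groups (adjusted p at most 4.16e-05).

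Aldoc, the aldolase best known from brain, was the exception among the aldolases and a low one. It read 0, 32.4 and 11.7 in the controls. Aldoc read 74.1, 76.7, 117.4 and 78.4 in Scx+ and 56.2, 32.3, 36.4 and 88.6 in Scx- at day 7. Day 14 Aldoc values were 57.2, 56.9, 22.3 and 25.7 in Scx+ and 45.7, 76.0, 34.3 and 53.8 in Scx-. Of the stimulated libraries, 3 lay inside the range of the controls. Its log2 fold change was 3.15 ± 0.69 and 2.39 ± 0.69 in Scx+ and Scx- at day 7, and 1.996 ± 0.69 and 2.42 ± 0.69 at day 14 (adjusted p from 0.000813 to 0.021), on a signal that ranked 32 of 32 per length in the controls. Without control replicate 1, where it was listed at 0, the rise was 1.99 in Scx+ at day 7 (adjusted p = 0.00385) and no longer passed in the other 3 groups, at 1.23, 0.84 and 1.26 in Scx- at day 7, Scx+ at day 14 and Scx- at day 14 (adjusted p = 0.0558, 0.184 and 0.0619). Scx+ day 14 replicate 1 or 2 likewise decided its call in their own group (adjusted p = 0.0560 and 0.0542 without them). The authors' deposited table lists Aldoc as higher in Scx+ at day 7 (2.53, adjusted p = 0.00559). For Scx- at day 7, Scx+ at day 14 and Scx- at day 14 that table gives 1.88, 1.46 and 1.85, which did not pass (adjusted p = 0.0902, 0.251 and 0.1365).

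Of the lactate genes, Ldha and the exporter gene Slc16a3 fell in every group. Ldha, the lactate dehydrogenase subunit typical of glycolytic tissue, read 201568, 257574 and 248240.1 in the controls. Ldha read 28006, 28073, 38096 and 27195 in Scx+ and 29699, 36244, 50455 and 31034 in Scx- at day 7. Day 14 Ldha values were 26693, 41935, 25482 and 27853 in Scx+ and 42457, 66799, 26839 and 34413 in Scx-, every stimulated library below every control. Its log2 fold change was -2.96 ± 0.27 and -2.70 ± 0.27 in Scx+ and Scx- at day 7, and -2.97 ± 0.27 and -2.54 ± 0.27 at day 14 (adjusted p from 2.42e-07 to 3.57e-06). Slc16a3, the lactate exporter MCT4, ranged over 21944 to 30441 in the controls, 3039.9 to 5119 in the Scx+ and 2397 to 6099 in the Scx- libraries of day 7, and 2955 to 7713 in the Scx+ and 2966 to 11075 in the Scx- libraries of day 14, also without overlap. It changed by -2.64 ± 0.41 and -2.71 ± 0.41 in Scx+ and Scx- at day 7, and -2.42 ± 0.41 and -2.30 ± 0.41 at day 14 (adjusted p from 3.14e-05 to 0.000331). Slc16a1, the carrier MCT1 of oxidative and many other cells, ranged over 1966 to 3746 in the controls, 2472 to 3290.1 in the Scx+ and 1913 to 2969.8 in the Scx- libraries of day 7, and 1966 to 2710.4 in the Scx+ and 2364 to 3261 in the Scx- libraries of day 14 and did not pass in any group, with 0.07 ± 0.20 and -0.14 ± 0.20 in Scx+ and Scx- at day 7, and -0.31 ± 0.20 and 0.02 ± 0.20 at day 14. Without control replicate 1 it passed as lower in Scx+ at day 14 (-0.55, adjusted p = 0.0324), and with library totals as higher in Scx+ at day 7 (0.75, adjusted p = 0.00694). Ldhb, the subunit of oxidative tissue, differed between controls, at 747.1, 1674 and 7612, and ranged from 294.0 to 468.2 in Scx+ and 294.9 to 534.6 in Scx- at day 7. It fell in 3 groups by 2.43 in Scx+ and 2.37 in Scx- at day 7 and 2.51 in Scx+ at day 14. Without control replicate 3 these falls were -1.52, -1.47 and -1.60 (adjusted p = 0.0189, 0.0244 and 0.0167). The difference of Ldhb in Scx- at day 14 was -1.49 ± 0.61 (adjusted p = 0.0561), where replicates 1 and 2 lay near 1455 and replicates 3 and 4 at 347.7 and 436.6. There it passed as lower without control replicate 1, at -2.25 (adjusted p = 0.00618), and without Scx- day 14 replicate 1 or 2, at -1.81 each (adjusted p = 0.0297 and 0.0277).

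Both pyruvate dehydrogenase kinases, which hold pyruvate back from the mitochondria, were measured. Pdk4, induced in muscle by fasting and fat use, had the widest SE of the 32 genes and read 18193, 18330.5 and 29829 in the controls. Pdk4 read 252.2, 93.2, 1860.4 and 1908 in Scx+ and 1662, 4083, 1642 and 621.1 in Scx- at day 7. Day 14 Pdk4 values were 324.3, 3948, 598.9 and 12865 in Scx+ and 31285, 27227, 2372 and 985.9 in Scx-. In Scx- at day 14 replicates 1 and 2 reached the controls and replicates 3 and 4 did not. It fell, with a log2 fold change of -5.31 ± 1.44 (adjusted p = 0.00474) in Scx+ and -3.73 ± 1.44 (adjusted p = 0.0362) in Scx- at day 7 and by -3.60 ± 1.44 (adjusted p = 0.0439) in Scx+ at day 14. Pdk4 differed by -1.69 ± 1.44 (adjusted p = 0.357) in Scx- at day 14. The call in Scx- at day 7 was lost without any 1 control or without Scx- day 7 replicate 1, 3 or 4 (adjusted p from 0.0576 to 0.0920). That in Scx+ at day 14 was lost without any 1 control, replicate 1 or 3 of Scx- day 7, or replicate 1 or 3 of Scx+ day 14 (adjusted p from 0.0519 to 0.125). With the muscle covariate Pdk4 was at -1.30 in Scx+ at day 7 (adjusted p = 0.234). Pdk1, the kinase gene that HIF-1 induces, ranged over 3262 to 4292 in the controls, 1894 to 3630.1 in the Scx+ and 2321 to 3320.2 in the Scx- libraries of day 7, and 2236 to 3794 in the Scx+ and 1598 to 4796 in the Scx- libraries of day 14 and did not pass, with -0.50 ± 0.30 and -0.49 ± 0.30 in Scx+ and Scx- at day 7, and -0.26 ± 0.30 and -0.25 ± 0.30 at day 14.

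Of the 7 hypoxia genes, Hif1a rose in every group, while Epas1, Egln1 and Vegfa fell in every group. Hif1a (chromosome 12, 73901375 to 73947530) read 2536, 2098 and 1915 in the controls. Hif1a read 19589.7, 16277, 14668 and 16288 in Scx+ and 17658, 12189, 12707 and 15088 in Scx- at day 7. Day 14 Hif1a values were 15212, 13333, 11145 and 7885 in Scx+ and 8092, 5486, 14871 and 20727 in Scx-. Each stimulated library exceeded each control, and the lowest of them was Scx- day 14 replicate 2, at 5486. The log2 fold change was 2.94 ± 0.33 and 2.72 ± 0.33 in Scx+ and Scx- at day 7, and 2.41 ± 0.33 and 2.32 ± 0.33 at day 14 (adjusted p from 1.71e-06 to 5.7e-05). Epas1, the subunit prominent in endothelium, moved the opposite way over ranges of 8205 to 12785 in the controls, 2760.0 to 4548 in the Scx+ and 1335 to 4682 in the Scx- libraries of day 7, and 2205 to 5297 in the Scx+ and 3180.3 to 9139 in the Scx- libraries of day 14. It fell, with a log2 fold change of -1.54 ± 0.42 (adjusted p = 0.00407), -2.01 ± 0.42 (adjusted p = 0.000597) and -1.81 ± 0.42 (adjusted p = 0.00153) in Scx+ and Scx- at day 7 and Scx+ at day 14. In Scx- at day 14 the fall was -1.13 ± 0.42 (adjusted p = 0.0363), with replicate 1 inside the range of the controls, and it did not hold without control replicate 1 or 2 or Scx- day 14 replicate 2 or 4 (adjusted p from 0.0929 to 0.106). Of 12 endothelial markers 0, 2, 1 and 0 were lower in these 4 groups in the same order.

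Egln1, the main oxygen-sensing hydroxylase, ranged over 11204 to 15218 in the controls, 2698 to 3750.4 in the Scx+ and 2514 to 4089 in the Scx- libraries of day 7, and 3263 to 4859 in the Scx+ and 3250.3 to 7014 in the Scx- libraries of day 14, with every stimulated library under every control. It changed by -2.11 ± 0.25 and -2.07 ± 0.25 in Scx+ and Scx- at day 7, and -1.86 ± 0.25 and -1.55 ± 0.25 at day 14 (adjusted p from 2.35e-06 to 0.000134). Egln3, a hydroxylase that HIF itself induces and that is abundant in muscle, spread more widely, over 3075 to 4399 in the controls, 266.2 to 1253 in the Scx+ and 227.0 to 1296 in the Scx- libraries of day 7, and 398.2 to 2338 in the Scx+ and 344.6 to 4712 in the Scx- libraries of day 14. It fell, with a log2 fold change of -2.76 ± 0.91 (adjusted p = 0.0161) in Scx+ and -2.38 ± 0.91 (adjusted p = 0.0356) in Scx- at day 7. The first call was lost without control replicate 3 (adjusted p = 0.0501) and the second without any 1 control or Scx- day 7 replicate 1 or 4 (adjusted p from 0.0603 to 0.106). At day 14 it differed by -2.08 ± 0.91 (adjusted p = 0.0639) and -1.46 ± 0.91 (adjusted p = 0.209), and it passed in Scx+ without Scx+ day 14 replicate 4 (-2.58, adjusted p = 0.0299) and without Scx- day 14 replicate 2 or 4 (adjusted p = 0.0455 and 0.0465). With the muscle covariate its value in Scx+ at day 7 was -0.57 (adjusted p = 0.562). The authors' deposited table lists Egln3 as lower in Scx+ at day 14 (-1.77, adjusted p = 0.00213).

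Of the HIF targets, Vegfa was lower in every group, Bnip3 in 3 of 4 and Car9 in none. Vegfa, the main growth factor for vessels, ranged over 6005 to 9064 in the controls, 1392 to 2189.5 in the Scx+ and 1313 to 4120.1 in the Scx- libraries of day 7, and 1972 to 2976 in the Scx+ and 2267 to 4099.5 in the Scx- libraries of day 14, without overlap with the controls, and changed by -2.20 ± 0.30 and -1.90 ± 0.30 in Scx+ and Scx- at day 7, and -1.64 ± 0.30 and -1.35 ± 0.30 at day 14 (adjusted p from 1.16e-05 to 0.00195). Bnip3, which promotes the removal of mitochondria, ranged over 10251 to 13926 in the controls, 3161 to 5914 in the Scx+ and 3458 to 6009 in the Scx- libraries of day 7, and 5558 to 9209.7 in the Scx+ and 4940.1 to 12731 in the Scx- libraries of day 14. It fell, with a log2 fold change of -1.49 ± 0.29 and -1.34 ± 0.29 in Scx+ and Scx- at day 7 and by -0.86 ± 0.29 (adjusted p = 0.0179) in Scx+ at day 14. The last call did not hold without control replicate 3 or Scx+ day 14 replicate 1 (adjusted p = 0.0657 and 0.05004) or with library totals (-0.26, adjusted p = 0.376). In Scx- at day 14 Bnip3 differed by -0.67 ± 0.29 (adjusted p = 0.0696), and it passed without replicate 2 of that group (-0.92, adjusted p = 0.00938). Car9, a carbonic anhydrase of the cell surface and a sharp marker of HIF-1 activity, stayed at a low signal of 121.3 to 213.2 in the controls, 194.7 to 490.2 in the Scx+ and 63.9 to 418.4 in the Scx- libraries of day 7, and 93.2 to 405.5 in the Scx+ and 46.4 to 97.2 in the Scx- libraries of day 14. It did not pass against the control, with 1.28 ± 0.57 and -0.03 ± 0.57 in Scx+ and Scx- at day 7, and 0.58 ± 0.57 and -1.11 ± 0.57 at day 14 (adjusted p from 0.0585 to 0.971). In Scx+ at day 7, where 3 of 4 libraries lay above the controls, it passed without Scx+ day 7 replicate 4 (1.58, adjusted p = 0.0303), without Scx- day 7 replicate 2 or 3 (adjusted p = 0.0443 and 0.0308) and without Scx+ day 14 replicate 3 (adjusted p = 0.0414).

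**Figure D4:**
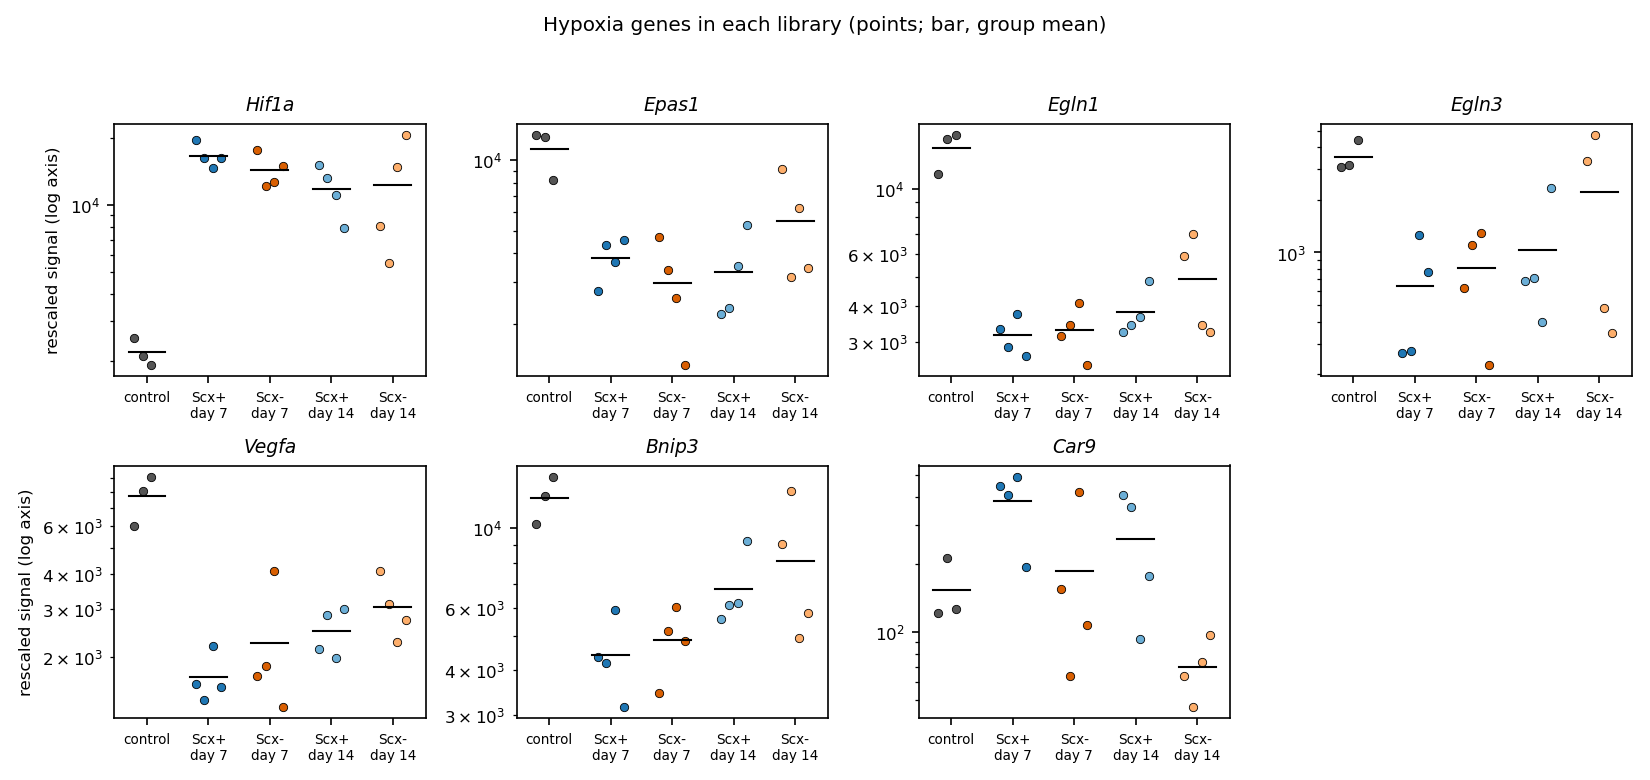
Rescaled signal (log axis) of the 7 hypoxia genes in each library (points), with bars at the group means. Hif1a is higher in all 16 stimulated libraries than in the 3 controls, Egln1 and Vegfa are lower in all 16, and Car9 is at 46.4 to 97.2 in the 4 Scx- libraries of day 14.

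Between genotypes, no gene of the 32 differed past the threshold at either day. At day 7, 0 of 32 passed and 1 had an unadjusted p under 0.05 (limma), where 0.77% of all tested genes passed. At day 14, 0 of 32 passed and 6 had an unadjusted p under 0.05, where 0.517% of all genes passed. The difference between the 2 genotype effects gave 0 of 32 adjusted and 0 unadjusted (background 0.0181%, with 0.00602% higher and 0.012% lower). These shares are of adjusted calls. Of all 16619 tested genes, 1207 at day 7, 2429 at day 14 and 721 for the difference of effects had an unadjusted p under 0.05. Among the 32, those under it were Car9 at day 7, and Hk2, Pfkl, Pfkfb3, Pgam1, Eno1 and Car9 at day 14. The median difference of the 32 genes, Scx- less Scx+, was 0.12 at day 7 and 0.38 at day 14, beside 0.02 for all tested genes at each day. The day 14 median rested on Scx- day 14 replicates 1 and 2, the libraries with most muscle signal in their group: without both it was -0.04, with Gapdh at -0.08 ± 0.37 in place of 0.85 ± 0.44, Aldoa at 0.21 ± 0.76 in place of 1.36 ± 0.71 and Egln3 at -1.02 ± 0.79 in place of 0.63 ± 0.85.

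Car9 lay farthest towards lower values in Scx- at both days. At day 14 it read 63.4, 46.4, 73.4 and 97.2 in Scx- against 405.5, 361.9, 93.2 and 177.9 in Scx+, so that the highest Scx- library lay just above the lowest Scx+ library. At day 7 it read 155.9, 63.9, 418.4 and 106.9 against 445.0, 408.9, 490.2 and 194.7, also with overlap. The differences were -1.69 ± 0.52 (adjusted p = 0.193) at day 14 and -1.31 ± 0.52 (adjusted p = 0.512) at day 7. The authors' deposited table gives -1.86 ± 0.48 for Car9 at day 14 (SE, adjusted p = 0.0158) and -1.06 ± 0.52 at day 7 (adjusted p = 0.279). Against the control, the authors' deposited table lists Car9 as higher in Scx+ at day 7, at 1.33 ± 0.39 (SE, adjusted p = 0.00182), and as lower in Scx- at day 14, at -1.10 ± 0.44 (SE, adjusted p = 0.0451).

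Pfkl and Pfkfb3 had the smallest p at day 14, with differences of opposite sign. Pfkl was -0.78 ± 0.21 (adjusted p = 0.132), with all 4 Scx- libraries (905.9 to 1362) below all 4 Scx+ libraries (1590.0 to 2862). Pfkfb3 was 0.89 ± 0.24 (adjusted p = 0.128), with values of 4331, 4208, 3329.6 and 2180.4 in Scx- and 1612, 2051, 1312 and 2566 in Scx+, and it passed without Scx- day 14 replicate 4, at 1.10 (adjusted p = 0.0286). Pgam1 and Eno1 differed by -0.55 ± 0.19 (adjusted p = 0.245) and -0.47 ± 0.19 (adjusted p = 0.295). On the deposited scale, without rescaling, Car9, Eno1, Pfkl and Pgam1 passed as lower in Scx- at day 14 (-1.92, -0.71, -1.02 and -0.79). On that scale the median of all genes shifted to -0.22 and 5.97% of all genes passed. Hif1a differed by -0.22 ± 0.31 at day 7 and -0.10 ± 0.31 at day 14, the latter turning to 0.60 ± 0.24 without Scx- day 14 replicates 1 and 2 (adjusted p = 0.674). Vegfa differed by 0.29 ± 0.28 and 0.29 ± 0.28 (adjusted p at least 0.641).

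**Figure D5:**
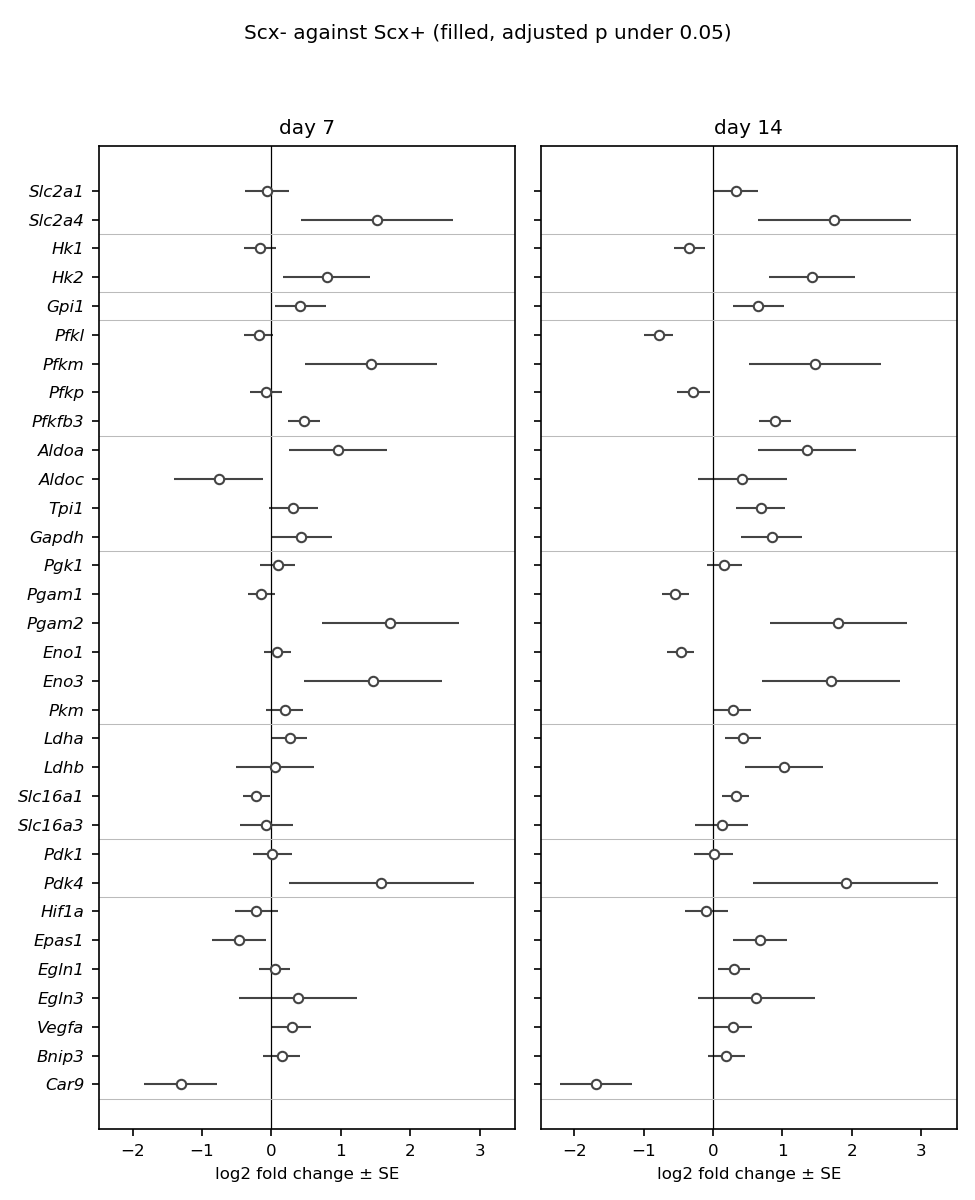
Log2 difference of Scx- from Scx+ (horizontal axis, points with SE bars) for the 32 genes at day 7 and day 14; open points did not pass an adjusted p of 0.05. No point is filled, the SE bars are widest for Pdk4 and the muscle isoforms, and Car9 lies farthest left at -1.31 and -1.69.

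The muscle isoforms did not pass between genotypes. Eno3, Pgam2, Pfkm and Slc2a4 differed by 1.46 ± 0.9998, 1.71 ± 0.99, 1.43 ± 0.95 and 1.52 ± 1.10 at day 7 and by 1.70 ± 0.9998, 1.81 ± 0.99, 1.47 ± 0.95 and 1.75 ± 1.10 at day 14 (adjusted p at least 0.401). The muscle marker list had medians of 2.16 and 1.92 in the same comparisons, with 0 of 25 passed. Without Scx- day 14 replicates 1 and 2 together the day 14 differences of the 4 isoforms were 0.84 ± 1.26, 1.19 ± 1.27, 0.37 ± 1.15 and 0.12 ± 1.23. Adjusted for the muscle list, the 4 differences were -0.19, 0.11, -0.14 and -0.16 at day 7, and 0.29, 0.43, 0.12 and 0.32 at day 14. In simulated data for these comparisons (16250 and 16253 genes), changes of 1 log2 unit were recovered for 39.8% of changed genes at day 7 and 44.4% at day 14, and changes of 2 units for 77.6% and 66.7%. The changed genes there were drawn at random from all tested genes, so these rates are not those of the muscle isoforms. With SEs of 0.95 to 1.10, even changes of 2 units in the isoforms may have gone undetected, as may smaller ones in the other genes.

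From day 7 to day 14 the Scx+ tendons showed no change in these genes that passed (0 of 32, with 2 at an unadjusted p under 0.05 by limma, background 0.0301%, of which 0.012% higher). Unadjusted, 1758 of all 16619 tested genes were under 0.05 in that comparison. In Scx- tendons 3 genes fell and 0 rose, where 3.86% of all tested genes fell and 1.4% rose (5.25% together). The 3 were the widely used isoforms Eno1, Pgam1 and Pfkl, whose values at both days are given above. Eno1 fell, with a log2 fold change of -0.88 ± 0.19 (adjusted p = 0.0124), Pgam1 by -0.83 ± 0.19 (adjusted p = 0.018) and Pfkl by -0.84 ± 0.21 (adjusted p = 0.0252), each with all 4 libraries of day 14 below all 4 of day 7. In Scx+ the same 3 genes differed by -0.33 ± 0.19, -0.43 ± 0.19 and -0.23 ± 0.21 (adjusted p at least 0.44). That the change differed between genotypes was tested as the difference of genotype effects, at -0.55 ± 0.27 for Eno1, -0.40 ± 0.27 for Pgam1 and -0.60 ± 0.29 for Pfkl, and did not pass (adjusted p = 0.9999 each).

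Of the 3 calls in Scx- between days, that of Eno1 held when any 1 library was left out, and those of Pgam1 and Pfkl did not. Pgam1 and Pfkl no longer passed without replicate 2 or 4 of Scx- day 7, or replicate 1 of Scx- day 14 (adjusted p from 0.0512 to 0.0746), and Pfkl also without replicate 3 of Scx- day 7 or replicate 2 of Scx- day 14 (adjusted p = 0.0658 and 0.0869). Pfkfb3 passed as higher at day 14 without Scx- day 14 replicate 4 (0.76, adjusted p = 0.0414), and Vegfa without Scx- day 7 replicate 3 (0.89, adjusted p = 0.0266). Leaving out Scx- day 14 replicates 1 and 2, the libraries with most muscle signal in their group, gave 0 of 32, with Eno1 at -0.92 (adjusted p = 0.0663). Muscle markers had a median change of 2.03 between these days and macrophage markers of -1.37, with 10 of 13 macrophage markers lower, and their part in the fall of the 3 genes was not tested. With the muscle covariate only Eno1 passed, at -0.87 (adjusted p = 0.0282).

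Other genes of the pathways, taken from textbook lists, showed which neighbours moved along. Of 41 tested genes of glucose, glycogen and pyruvate metabolism outside the 32, 9 rose and 27 fell in Scx+ at day 7, 9 and 27 in Scx- at day 7, 10 and 26 in Scx+ at day 14, and 5 and 22 in Scx- at day 14. Of all tested genes 33.8% rose and 27.5% fell, 32.3% and 25.9%, 30.9% and 25%, and 25.5% and 18.3% in the same order. The deepest falls in Scx+ at day 7 were in Phkg1 and Pygm, the kinase subunit and the phosphorylase that release glucose from muscle glycogen, at -7.77 ± 1.14 and -7.69 ± 1.33, and in Gpd1, the cytosolic glycerol-3-phosphate dehydrogenase, at -6.82 ± 0.74. The largest rises there were in the leukocyte-rich hexokinase Hk3 (2.96 ± 0.43), the pyruvate dehydrogenase kinase Pdk3 (2.85 ± 0.26) and the neuronal enolase Eno2 (2.50 ± 0.33). Against the control, the Scx- tendons of day 14 showed Gpd1 lower. It fell by 3.71 and Phkg1 by 3.40, while Eno2, Pdk3 and Eno4 rose by 2.28 ± 0.33, 2.24 ± 0.26 and 2.21 ± 0.74. From day 7 to day 14 in Scx-, Hk3 fell, with a log2 fold change of -1.68 ± 0.40 (adjusted p = 0.02) and 4 genes rose: Ldhd, Slc2a12, Gpd2 and Mpc2 (the last, a subunit of the mitochondrial pyruvate carrier, named after its value was seen), by 1.94 ± 0.54, 1.56 ± 0.27, 0.87 ± 0.24 and 0.82 ± 0.18. Between genotypes 1 of the 41 passed, the red cell enzyme gene Bpgm at day 7 (-2.63 ± 0.31 (adjusted p = 0.000586)), in groups whose erythroid markers also differed (7 of 11 lower in Scx-). For the difference of genotype effects 1 of the 41 passed as higher, where 0.00602% of all tested genes did. In Scx+ from day 7 to day 14, 1 of the 41 passed as lower, where 0.0181% of all tested genes did.

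Of 40 other tested hypoxia response genes, 15 rose and 14 fell in Scx+ at day 7, 15 and 12 in Scx- at day 7, 12 and 11 in Scx+ at day 14, and 11 and 10 in Scx- at day 14. The shares of all tested genes given for the preceding list against the control apply here too. Their median fold change was 0.11, -0.02, 0.09 and -0.02, close to that of all tested genes. Car12, a carbonic anhydrase related to Car9, rose by 7.99 ± 0.60 and 7.58 ± 0.60 in Scx+ and Scx- at day 7 and by 6.02 ± 0.60 and 6.16 ± 0.60 at day 14. Hmox1, which breaks down haem, rose by 3.90 ± 0.52, 4.12 ± 0.52, 3.05 ± 0.52 and 2.05 ± 0.52 in the same order. Plod2, a collagen lysyl hydroxylase, rose by 3.47 ± 0.47 in Scx+ at day 7, where Vldlr and Ppp1r3c fell the most, at -4.94 ± 0.56 and -4.32 ± 0.59. In Scx- from day 7 to day 14, 6 of the 40 fell and 1 rose (3.86% and 1.4% of all tested genes). Among the falls were Hmox1 and the lipid droplet gene Plin2, at -2.07 ± 0.48 and -1.21 ± 0.34, and Rora rose by 0.89 ± 0.16. Between genotypes 0 of the 40 passed at either day, with 2 and 7 at an unadjusted p under 0.05 (limma). Of all 16619 tested genes, 1207 and 2429 were under it.

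The order of levels within the 32 genes differed between the controls and Scx+ at day 7. On a scale of signal per kilobase, per 1e6 of the library's total signal, Aldoa stood at 11400, Eno3 at 3926, Ldha at 1903, Pkm at 1843 and Pgam2 at 1839 as control means, ahead of Pgam1 at 18.92 and Hk1 at 3.70. In Scx+ at day 7 the means were 648 for Aldoa, 579 for Pkm, 394 for Ldha, 188 for Eno3, 174 for Pgam1 and 62.4 for Pgam2. Pgam1 moved from rank 23 to rank 7 and Hif1a from rank 26 to rank 10, while Pgam2 moved from rank 5 to rank 12 and Slc2a4 from rank 11 to rank 29. These ranks use means, and the Scx+ values of Eno3, Pgam2 and Slc2a4 differed several-fold between libraries.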

How the data were processed

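RNA-seq of 19 plantaris tendon libraries was used, grouped by the labels. Per the submitters' processing notes the tools were DESeq2, STAR and FastQC, with mm10 as the genome, and no versions or roles are given. The counter, the annotation and the use of strand are not given in the sources used here. The deposited table gives 1 signal value per gene and library, which the authors had scaled per library. The values are not whole reads: at the best-fitting step of each library 35.9% to 63.3% of low values lay within 0.1 of a whole number, where chance gives 20%, so whole reads were not recovered, the depth is unknown and no count model was fitted. The authors' deposited table of comparisons gives log2 fold changes with SE and adjusted p-values, used where it is named.

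Libraries were brought to a common scale with median-of-ratios factors from the 13703 genes that no library lists at 0 (factors 0.8437 to 1.098). Genes with at least 10 in at least 3 libraries were kept, and log2(value + 2) was fitted with limma 3.58.1 in R 4.3.3 (intensity trend, robust), all 5 groups in 1 model. Fold changes are on that log2(value + 2) scale, which understates changes of low genes. P-values were adjusted by Benjamini and Hochberg over 16619 genes, with a threshold of 0.05. The fit was tested on simulated data. Lengths and positions came from GENCODE M21 (GRCm38) and promoters from RefSeq (GRCm38.p6). Values in every library are given for the muscle isoforms, their partners and the 10 other genes with the largest changes past the threshold, and of the other pathway genes the 3 largest rises and falls of a comparison may be named. The genes and lists were chosen with earlier results of these data known.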

Additional observations from a re-analysis of the deposited data

Results flagged for a closer look

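In 2 of 128 sets of 4 libraries (32 genes in 4 stimulated groups) a single library stood far from the others, and chance flags about 1 set in 20. Both were Scx+ day 7 replicate 3. For Ldha it read 38095.5 against 28073 in the nearest library, a gap of 0.906 of the range of the group on the log2 scale. For Aldoc it read 117.4 against 78.4, a gap of 0.878 of the range.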

How the results depend on the processing

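Calls that held under every alternative run numbered 22 of 28 in Scx+ at day 7 against the control, 24 of 28 in Scx- at day 7, 21 of 27 in Scx+ at day 14, 14 of 20 in Scx- at day 14, and 0 of 3 in Scx- from day 7 to day 14. In Scx- at day 14 against the control the count of 20 became 26 without replicates 1 and 2 of that group together, 24 on the deposited scale, 23 with the muscle covariate, 17 with array quality weights and 18 with only the groups compared. Without these replicates and with the muscle covariate, the share of all tested genes that passed, given above, also rose from 43.8%. For the other counts of alternative fits in this paragraph that share is not given, apart from the deposited scale between genotypes, given above. This holds for the counts between days too, so their changes are not results about these genes alone. On the deposited scale 4 genes passed between genotypes at day 14 (0 higher, 4 lower). Between days in Scx- the count of 3 became 1 with the muscle covariate, 0 with array quality weights, 1 with only the groups compared and 0 without Scx- day 14 replicates 1 and 2 together; fewer libraries entered the last 2 fits, and the cause of the others was not tested. With library totals Slc16a1 in Scx- at day 7 turned from -0.14 to 0.55 (adjusted p = 0.0378), where the median of all genes rose to 0.81. Leaving out each library in turn gave, against the control, 27 to 30 calls for the Scx+ day 7 group, 25 to 28 for Scx- day 7, 22 to 28 for Scx+ day 14 and 15 to 23 for Scx- day 14. It gave 0 to 1 between genotypes at day 14, 1 to 4 between days in Scx-, and 0 to 0 in the other 3 comparisons. The labels do not say that a replicate number pairs samples. Correlations of same-numbered libraries ran from -0.4289 to 0.3513, and those of differently numbered libraries from -0.4521 to 0.4325. No pairing by number was seen in them, though they cannot exclude shared handling. With the replicate block 28, 26, 26 and 16 genes passed against the control in Scx+ and Scx- at day 7 and Scx+ and Scx- at day 14, and 3 between days in Scx-. The number of libraries and their spread, not a known depth, limit the precision here.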
